A study of Mus musculus with 2 samples.

Results

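Immediate early genes and heat shock genes were described across the cells of knee joints of mouse pups, as 33 named genes of the 32285 in the deposited matrix. They were found by symbol and fall into 23 immediate early genes and 10 heat shock genes. Hindlimb knee joints of mice of both sexes at postnatal day 7 were taken from WT mice and from Col12a1 KO mice, which lack the gene of collagen XII, with no strain given in the labels. All joints were freed of skin and paws, and both genotypes went through the same digestion, 6 h with 4 mg/mL of collagenase II in medium with serum. No undigested tissue was analysed here, and the labels state neither the temperature of the digestion, nor how many animals were pooled, nor whether Col12a1 was lost in every tissue. Single-cell 3' libraries (10x Genomics, version 3 chemistry) came from 2 experiments, which gave 1 and then 2 libraries of each genotype, and were merged into 1 matrix.

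The merged matrix held 24203 barcodes and 257619292 unique molecular identifiers (UMIs, 1 for each captured transcript). Barcodes end in 1 or 2, here barcode set 1 (11906 barcodes) and set 2 (12297). No label ties a set to a genotype, library or experiment, so the matrix is 1 sample, WT was not compared with KO, and no p-value is given. Nothing states that the sets are separate animals or cultures. With at least 500 genes, 1000 UMIs and at most 10% mitochondrial UMIs, 15174 cells passed and 15171 were kept, 7158 in set 1 with a median of 10960.5 UMIs and 8013 in set 2 with a median of 9623. The doublet caller marked only 3 cells (0.0198%) and so did not work, and doublets likely remain. The sets shared 40 barcode sequences, 14 of them among kept cells, of which 5 fell in the same class in both. Clustering without the members gave 33 clusters, which fell into 17 classes named from marker genes, apart from 2 clusters that stayed unnamed. In each class at least 6 of its 7 to 10 markers were called higher than in all other cells. The same markers had named the clusters, so this count is no separate check of the names.

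Immediate early genes are transcribed within minutes of a stimulus from factors already present in the cell, without new protein synthesis. Most encode short-lived transcription factors, such as the Fos and Jun families that pair as AP-1, the Egr zinc fingers, the Nr4a nuclear receptors and Krüppel-like factors, while others encode feedback regulators. Heat shock genes encode chaperones that hold or refold proteins, and their promoters carry heat shock elements bound by HSF1. Both groups are known to be induced when tissue is dissociated with enzymes, which is why they are often read as a record of cell isolation.

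Hspa1a and Hspa1b, the inducible Hsp70 genes, and Hspb1, the small heat shock protein gene, carry most of the results on heat shock genes below. The 150 bases before their starts are shown because all 3 hold a heat shock element of 2 units (GAANNTTC or TTCNNGAA, searched on both strands), which stands in capitals. The windows lie at chr17:34972157-34972306 (minus strand) for Hspa1a, chr17:34959239-34959388 (minus strand) for Hspa1b and chr5:135887769-135887918 (plus strand) for Hspb1, from RefSeq on GRCm38.p6.
Hspa1a: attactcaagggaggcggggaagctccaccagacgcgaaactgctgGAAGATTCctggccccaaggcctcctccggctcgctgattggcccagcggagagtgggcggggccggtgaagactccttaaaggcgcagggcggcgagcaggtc
Hspa1b: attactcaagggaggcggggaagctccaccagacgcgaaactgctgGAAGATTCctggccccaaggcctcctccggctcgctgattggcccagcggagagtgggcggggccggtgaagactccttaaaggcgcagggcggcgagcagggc
Hspb1: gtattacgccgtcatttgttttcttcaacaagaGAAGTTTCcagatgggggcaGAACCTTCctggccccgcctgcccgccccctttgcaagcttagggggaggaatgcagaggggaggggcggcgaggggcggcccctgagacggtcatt

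The Hspa1a and Hspa1b windows were identical at 149 of 150 bases, and their whole transcripts, from GENCODE M21 on the same build, were identical at 94.2% of 2713 aligned bases. These neighbours can share reads, so how the UMIs divide between them is uncertain, and their sum is used where cells are sorted by Hsp70 level. In windows from 250 bases before to 50 after the start, 27 of the 33 members had a RefSeq entry, and those without one were Hsp90aa1, Fosl1, Hspa8, Ier2, Egr1 and Egr3. The 2-unit element stood in 7 of the 8 heat shock genes with an entry (Hspa1a, Hspa1b, Hspb1, Hsph1, Dnaja1, Hspe1 and Hspd1) and in 3 of 19 immediate early genes (Fosl2, Jun and Egr2), against 15.1% of 32851 windows of all genes. A member counted if any of its windows held the motif (36 windows for 27 members), while shares of all genes are per window, so the 2 are not on the same footing. Its longer form of 3 units (GAANNTTCNNGAA or TTCNNGAANNTTC), which contains the shorter one, stood in Hsph1, Hspe1 and Hspd1 and in 0.603% of all windows. Among motifs linked to immediate early genes, the cyclic AMP element TGACGTCA stood in Dusp1 and Btg2 (1.79% of all windows), the CArG box in Egr2 and Zfp36 (1.63%), and the AP-1 motif TGANTCA in none of the members (7.81%). These matches describe letters in a window and show no binding.

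In these cells the 23 immediate early genes made up 0.539% of kept UMIs and the 10 heat shock genes 0.872%, and all 33 had at least 100 UMIs. Levels below are in CPM, the number of a gene's UMIs among 1000000 UMIs from all cells of a class. A gene was called higher in a class when its CPM was at least 2 times that of all other kept cells. It was called lower at 0.5 times or less. A call also needed a 95% interval that leaves out 1 and the same direction in both sets. At least 100 UMIs were needed over both sides together. Intervals throughout cover counting error only. Of 561 pairs of a member and a class, 39 were called higher and 187 lower, while the same rule over all 16899 genes tested called 9.77% of pairs higher and 30.2% lower. The members as a whole were therefore close to the background in both directions, and what follows concerns which member stood where.

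**Figure D1:**
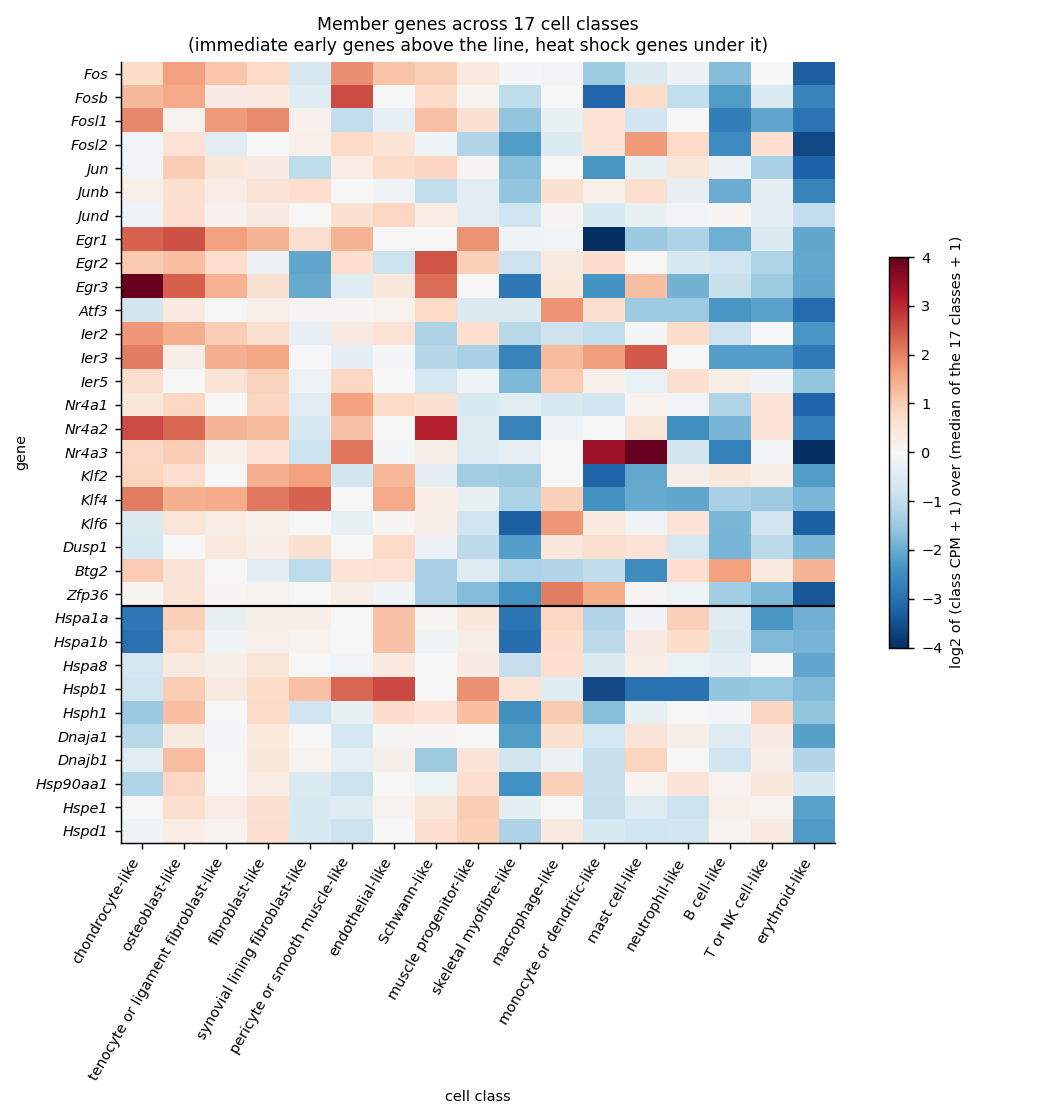
Level of each member in each of 17 cell classes, as the log2 of class CPM over the median of the classes, with 1 CPM added to both; rows are genes, columns are classes, red is above and blue below that median. Chondrocyte-like cells are red for Egr3 and blue for Hspa1a and Hspa1b, and erythroid-like cells are blue in nearly every row except Btg2.

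The summed levels placed the classes in different orders for the 2 groups. Summed immediate early levels were highest in osteoblast-like cells, whose sum was 7360 CPM (7818 from set 1, 6623 from set 2), chondrocyte-like cells at 6981 CPM (6098 and 8087) and macrophage-like cells at 6857 CPM (6824 and 6889), an order that the sets did not share. They were lowest in erythroid-like cells at 1113 CPM (1093 and 1140) and skeletal myofibre-like cells at 1591 CPM (974 and 2005). Summed heat shock levels were highest in endothelial-like cells at 14527 CPM (12170 and 16412), followed by osteoblast-like cells at 12626 CPM (13506 and 11210). Chondrocyte-like cells, near the top for immediate early genes, had a low sum for heat shock genes, 3211 CPM (3456 and 2904), above skeletal myofibre-like cells at 2792 CPM and erythroid-like cells at 2451 CPM. Over the 17 classes the log2 sums of the groups had a Pearson r of 0.62 and a Spearman rho of 0.49, a description of points that share libraries. The immediate early sum also moved with the median UMIs of a class (r = 0.66), from 3502 in skeletal myofibre-like cells to 19313.5 in synovial lining fibroblast-like cells, and the part of depth in these orders was not tested.

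**Figure D2:**
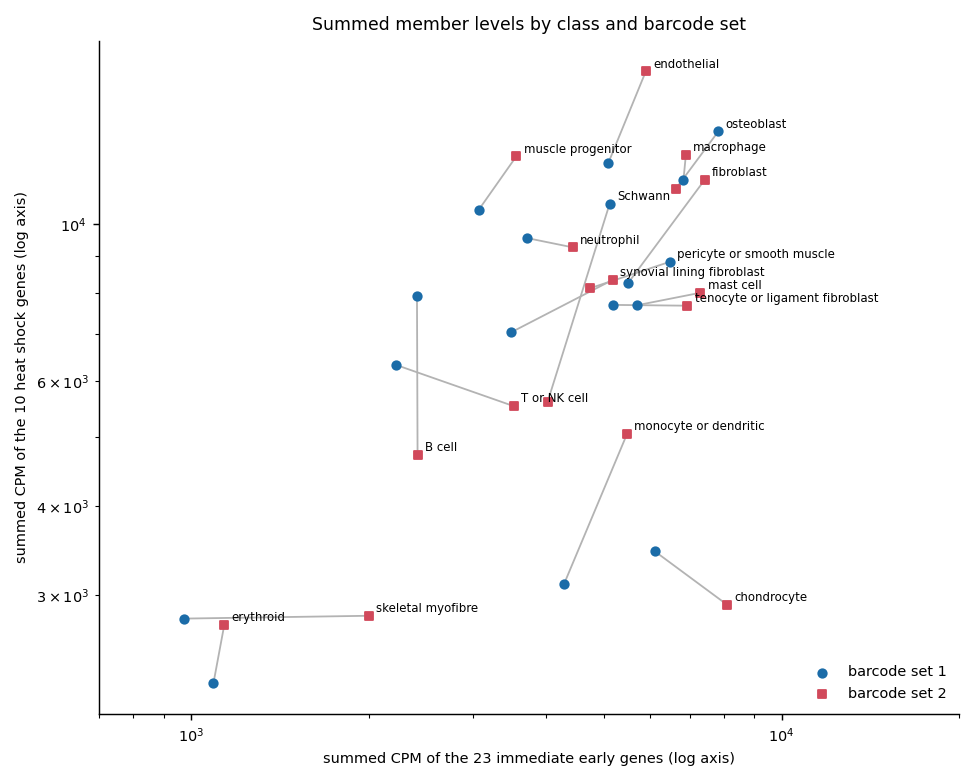
Summed CPM of the 23 immediate early genes (x, log axis) and the 10 heat shock genes (y, log axis) in each class, with barcode set 1 (circles) joined to set 2 (squares). Chondrocyte-like cells lie far right and low at 8087 and 2904 CPM in set 2, while muscle progenitor-like cells lie left and high.

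Among the AP-1 genes, Fos, the classic immediate early partner of Jun, was highest in pericyte-like or smooth muscle-like cells at 656 CPM, with the sets far apart (897 and 364). Osteoblast-like cells followed at 557 CPM (610 and 472), and erythroid-like cells were lowest at 17.4 CPM (11.1 and 25.9). In set 2 the pericyte-like or smooth muscle-like value was at 1.05 times the other cells, so that call rests on set 1. Fosb, a close relative of Fos, had the same leading classes, at 248 CPM (351 and 123) and 117 CPM (125 and 104), and was also called higher in chondrocyte-like cells at 99.3 CPM. Fosl1, which encodes Fra-1 and is induced later than Fos, was called higher in fibroblast-like cells only, at 147 CPM (167 and 129). Chondrocyte-like cells were at a like level of 149 CPM (179 and 113) but not called. Within the fibroblast-like class Fosl1 was at 253 CPM in a cluster led by cytokine genes and at 94.3 CPM in the other clusters together. It was lowest in the cluster led by Abca8a, at 12.8 CPM. With the 3 called doublets kept, and the cells clustered anew, the fibroblast-like ratio of Fosl1 went from 2.24 to 0.931. Fosl2, which encodes Fra-2, was called higher in mast cell-like cells at 231 CPM (240 and 214) and neutrophil-like cells at 125 CPM (139 and 104). In neutrophil-like cells another clustering seed gave a ratio of 0.988 in place of 2.07. Neutrophil-like clusters ran from 14.4 CPM in the one led by Elane to 369 CPM in the one led by Asprv1. The Jun genes were spread more evenly: Jun, Junb and Jund were called higher in no class. Jund, the most constitutive of them, ranged from 244 CPM in erythroid-like to 874 CPM in endothelial-like cells, a 3.58-fold range, the narrowest of the 33 members. Atf3, a stress-induced partner of Jun proteins, was called higher in macrophage-like cells alone at 864 CPM (894 and 834), 4.15 times the other cells, with Schwann-like cells next at 437 CPM.

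Egr1 and Egr3 were highest in skeletal classes and Egr2 in Schwann-like cells. Egr1, the zinc finger factor at the head of the family, stood at 843 CPM (918 and 723) in osteoblast-like and 738 CPM (639 and 861) in chondrocyte-like cells, and at 5.49 CPM (6.32 and 4.06) in monocyte-like or dendritic-like cells. The order of the leading classes turned between sets. Egr3 was at 176 CPM (169 and 186) in chondrocyte-like cells, 12.4 times all other cells (interval 11.8 to 13.0), and no other class passed 52.2 CPM, the osteoblast-like value. Both sets gave the Egr3 ratio, at 11.1 and 14. Egr2, known as the factor that drives myelination in Schwann cells, was highest in Schwann-like cells at 30.7 CPM (33.6 and 28.6), 5.58 times the other cells, and was also called higher in osteoblast-like cells at 11.6 CPM and chondrocyte-like cells at 10.5 CPM.

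Of the other early response genes, Ier3, which encodes a survival and stress regulator, was highest in mast cell-like cells at 1900 CPM (1763 and 2153) and chondrocyte-like cells at 1429 CPM (1432 and 1426). Its level was 47.8 CPM in erythroid-like cells. Ier2 was called higher in chondrocyte-like cells at 422 CPM (414 and 432), and Ier5, a gene with links to HSF1, was called higher in no class. In the Nr4a family of orphan nuclear receptors each gene had its own leader. Nr4a3 stood at 905 CPM in mast cell-like cells (605 in set 1, 1458 in set 2), 30.2 times all other cells, followed by monocyte-like or dendritic-like cells at 269 CPM (203 and 381) and by erythroid-like cells at the bottom with 0.334 CPM. That was the widest range of any member, although its low end rests on only a few UMIs. Nr4a2 led in Schwann-like cells at 274 CPM (209 and 322), chondrocyte-like cells at 196 CPM (156 and 246) and osteoblast-like cells at 159 CPM (174 and 136), and Nr4a1 in pericyte-like or smooth muscle-like cells at 242 CPM (272 and 205).

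The Krüppel-like factors divided between mesenchymal and myeloid classes. Klf4 was highest in synovial lining fibroblast-like cells at 419 CPM (391 and 433) and fibroblast-like cells at 346 CPM (328 and 363). Klf2, known as a shear-responsive factor of endothelium, was at 335 CPM in synovial lining fibroblast-like cells, with 138 in set 1 and 436 in set 2, and was called higher in fibroblast-like cells at 289 CPM (172 and 396). Endothelial-like cells, at 265 CPM (202 and 315), did not pass the rule for Klf2. Klf6 was called higher in macrophage-like cells alone, at 935 CPM (1021 and 850), 3.51 times the other cells.

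The feedback genes included the one member that stayed high in red blood cell precursors. Zfp36, whose protein speeds decay of AU-rich messenger RNAs such as that of TNF, was highest in macrophage-like cells at 945 CPM (852 and 1036), 4.52 times the other cells, and in monocyte-like or dendritic-like cells at 649 CPM (527 and 858). Btg2, an antiproliferative gene, was called higher in B cell-like cells at 453 CPM (362 and 519) and in erythroid-like cells at 366 CPM (384 and 342). Dusp1, a phosphatase that inactivates MAP kinases, was called higher in no class and was highest in endothelial-like cells at 315 CPM (292 and 333).

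Among the heat shock genes, Hspb1, a small heat shock protein that binds actin and unfolded clients, varied most between classes. It stood at 3316 CPM (2723 and 3790) in endothelial-like, 2638 CPM (2675 and 2594) in pericyte-like or smooth muscle-like and 1864 CPM (1666 and 1960) in muscle progenitor-like cells, all called higher. It was 65.6 CPM (34.2 and 113) in neutrophil-like cells and 41.9 CPM (58.5 and 13.5) in monocyte-like or dendritic-like cells, 79.1-fold under the top. Hspa1a was at 3142 CPM (2529 and 3632) in endothelial-like cells, 2722 CPM (2913 and 2436) in neutrophil-like and 2708 CPM (2827 and 2516) in osteoblast-like cells. It was 194 CPM (163 and 233) in chondrocyte-like and 186 CPM (185 and 187) in skeletal myofibre-like cells, and Hspa1b followed it closely, with r = 0.98 between their log2 levels over 17 classes.

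The remaining chaperones were flatter. Hspa8, the constitutive Hsp70, ran from 345 CPM in erythroid-like to 2320 CPM in macrophage-like cells, and was called higher in no class. The same held for Hsph1, a nucleotide exchange factor of Hsp70 (40.0 to 516 CPM), for Dnaja1, an Hsp40 partner (104 to 753 CPM), and for Hsp90aa1, the inducible cytosolic Hsp90 (232 to 2436 CPM). Dnajb1, the stress-inducible Hsp40, was called higher in osteoblast-like cells at 281 CPM (277 and 287). Hspe1 and Hspd1, which encode the mitochondrial chaperonin pair and share a head-to-head start, both had their highest level in muscle progenitor-like cells, at 866 CPM (956 and 822) and 561 CPM (595 and 544), without passing the rule. These 2 genes overlap at their starts on opposite strands, and how reads there were assigned was not examined.

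Read by class, chondrocyte-like cells (1370 cells) showed the groups apart. Of their 23 immediate early genes, 7 were called higher (Fosb, Egr1, Egr2, Egr3, Ier2, Ier3 and Nr4a2) and 0 lower, where 8.23% of all genes were called higher and 31.5% lower in this class. Of the 10 heat shock genes, 0 were called higher and 6 lower: Hspa1a, Hspa1b, Hspb1, Hsph1, Dnaja1 and Hsp90aa1. Both chondrocyte-like clusters were low in Hspa1a. The cluster led by Matn1 and Col10a1, genes of growing and hypertrophic cartilage, was at 69.8 CPM (41.1 and 107), and the cluster led by Msmp and Prg4, the latter the gene of lubricin, was at 325 CPM (295 and 361). The latter is weakly named: its 10 leading genes held 0 chondrocyte markers and 1 marker of synovial lining fibroblasts, Prg4. Egr3 was at 141 CPM (160 and 116) in the Matn1 cluster and 214 CPM (178 and 256) in the Prg4 cluster.

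Osteoblast-like cells (558 cells) were high in both groups, with 5 immediate early genes (Fos, Fosb, Egr1, Egr2 and Nr4a2) and Dnajb1 called higher and 1 gene, Fosl1, lower, against 7.25% and 19.9% of all genes. Endothelial-like cells (243 cells) had 3 heat shock genes called higher (Hspa1a, Hspa1b and Hspb1) and 6 immediate early genes lower (Fosl1, Egr1, Egr2, Egr3, Ier3 and Nr4a2), against 10.5% and 21.1%. Tenocyte-like or ligament fibroblast-like cells (1077 cells) had 0 members called in either direction, against 3.96% of all genes higher and 23.7% lower. Macrophage-like cells (763 cells) had 3 members called higher (Atf3, Klf6 and Zfp36) and 8 lower, against 9.52% and 45.3%.

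Erythroid-like cells (1796 cells) had 31 members called lower and Btg2 alone higher, with 70.7% of all genes called lower there and 8.84% higher. Their own markers, mostly haemoglobin genes, took 404605 CPM, so the CPM of every other gene was reduced with them. With mitochondrial, ribosomal protein, haemoglobin and member genes left out of the totals, the erythroid-like lower calls were kept except for Jund (0.683 times the other cells) and Dnajb1 (0.55). Skeletal myofibre-like cells (291 cells) had 25 members called lower and 0 higher, against 52.5% and 7.73%, and B cell-like cells (1056 cells) 20 lower and 1 higher, against 29.9% and 21.8%. In B cell-like cells 18 of the 20 were immediate early genes, and Hspa1a and Hspa1b were not among them. Monocyte-like or dendritic-like cells (109 cells) had 18 called lower and 2 higher (Nr4a3 and Zfp36), against 33% and 8.41%. Several of those lower calls turned direction when the cells were clustered differently, Jun for example from 0.167 to between 1.04 and 1.18 times the other cells.

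Fibroblast-like cells (3433 cells) had Fosl1, Klf2 and Klf4 called higher and Egr3 and Btg2 lower, against 8.05% of all genes higher and 25.3% lower. Synovial lining fibroblast-like cells (156 cells) had Klf4 called higher and 11 members lower, against 7.78% and 22.1%. Pericyte-like or smooth muscle-like cells (112 cells) had 5 called higher (Fos, Fosb, Nr4a1, Nr4a3 and Hspb1) and 7 lower, against 9.75% and 12.7%, so both counts were above the background share. Muscle progenitor-like cells (1351 cells) had Hspb1 called higher and 9 immediate early genes lower, against 12.8% and 23.1%.

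Mast cell-like cells (123 cells) had 3 called higher (Fosl2, Ier3 and Nr4a3) and 9 lower, against 6.81% and 25.4%. Neutrophil-like cells (2070 cells) had Fosl2 called higher and 13 lower, against 10.7% and 49.7%. Schwann-like cells (101 cells) had Egr2 and Nr4a2 called higher and 9 lower, against 12.4% and 11.3%, and T cell-like or NK cell-like cells (69 cells) 0 higher and 12 lower, against 11.5% and 16.7%.

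The fibroblast-like class held 1 cluster that stood apart, and the following comparison was chosen after its values had been seen. This cluster of 777 cells (516 in set 1, 261 in set 2) was led by the cytokine genes Cxcl5, Csf3, Csf2 and Il6, and its median depth was 22379 UMIs, above the 10180, 13006.5 and 15505 of the other 3 fibroblast-like clusters. The names of these clusters are weak: the leading 10 genes held 0 fibroblast markers in the cytokine cluster and in those led by Ccl11 and Abca8a. The Ccl11 cluster had 1 synovial lining fibroblast marker there and the Abca8a cluster 1 adipocyte marker. Fos was at 41.5 CPM (35.1 in set 1, 52.1 in set 2) against 443 CPM in the other 3 together, 10.7-fold lower. Hspa1a was at 159 CPM (144 and 184) against 2416 CPM, 15.2-fold lower, and Hspb1 at 184 CPM (123 and 285) against 1211 CPM, 6.58-fold lower. For these 3 genes the cytokine cluster was lowest of the 4 in both sets.

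The same cells were not low in every early gene. Ier3 was at 1999 CPM (1997 and 2001) against 519 CPM, 3.85 times higher, and Nr4a2, Fosl1 and Nr4a3 were 2.88, 2.68 and 2.47 times higher. In all, 4 of the 23 immediate early genes were called higher and 9 lower (Fos, Fosb, Jun, Jund, Egr1, Egr2, Atf3, Klf2 and Btg2), and 7 of the 10 heat shock genes lower with 0 higher, where the same rule called 5.37% of 12464 genes higher and 24.8% lower. Jun was 2.94-fold, Jund 3.53-fold and Egr1 2.77-fold lower, although for Egr1 the cluster led by Pi16 lay under it in set 1. Among those not called were Ier2 at 0.958, Ier5 at 1.17, Nr4a1 at 1.11, Hspe1 at 0.901 and Hspd1 at 0.955 times the other clusters. Depth moved with this difference, and its part was not tested.

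**Figure D3:**
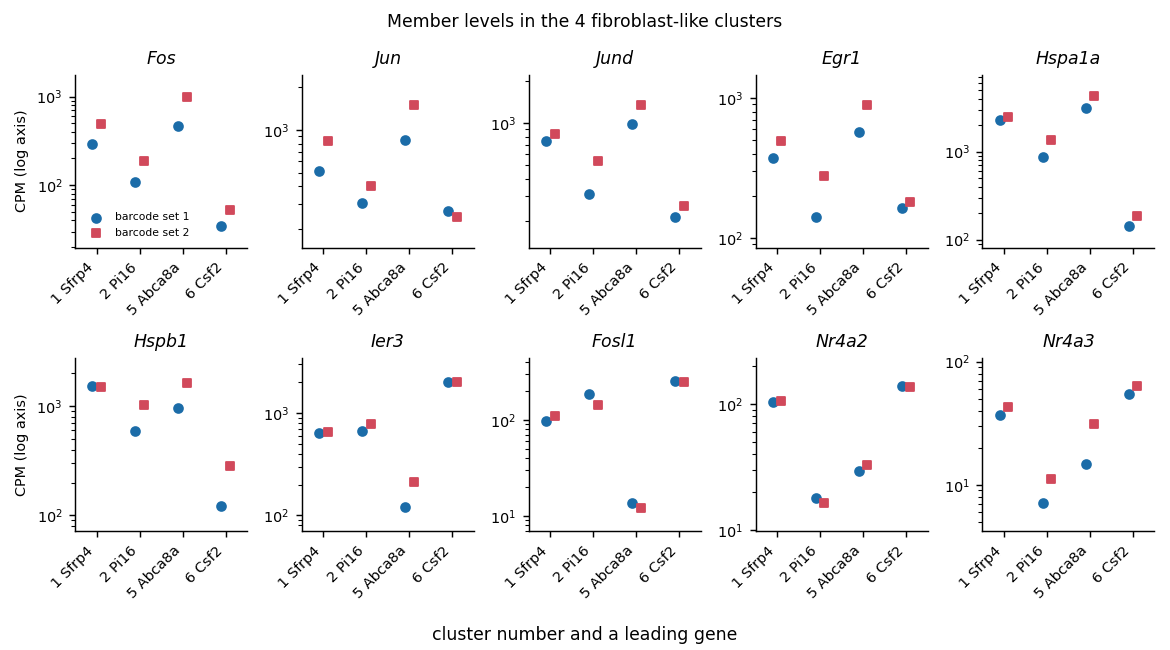
CPM (log axes) of 10 members in the 4 fibroblast-like clusters, each named by number and a leading gene, with barcode set 1 as circles and set 2 as squares. In the cluster marked Csf2, Fos sits at 35.1 and 52.1 CPM and Hspa1a at 144 and 184 CPM, under the other 3 clusters, while Ier3 sits at 1997 and 2001 CPM, above them.

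The Hsp70 genes were concentrated in a minority of cells. Each of 14477 kept cells with at least 2000 UMIs was thinned to 2000, leaving out shallower cells, and cells with 10 or more Hspa1a and Hspa1b UMIs were called Hsp70-high. There were 1809 such cells (12.5%), while 9866 (68.1%) had 0, and the top 10% of cells held 84.2% of these UMIs. Around the threshold lay 672 cells with 5 to 9 UMIs and 666 with 10 to 19, so this is a range and not a cell type. The share of Hsp70-high cells was 22% of osteoblast-like (interval 18.6 to 25.7), 20.9% of macrophage-like (18.1 to 24), 18.5% of endothelial-like and 18.2% of neutrophil-like cells, shares whose intervals overlap. These shares differed between sets: osteoblast-like cells stood at 25.2% in set 1 and 17.5% in set 2, macrophage-like cells at 20.4% and 21.3%. Endothelial-like cells were at 15% and 21.3% and neutrophil-like cells at 19.0% and 17.3%, so the order turned between sets. In the classes with the lowest shares, the pooled share follows. The share was 2.25% of erythroid-like, 1.38% of skeletal myofibre-like and 1.17% of chondrocyte-like cells (0.672 to 1.90). Outside the named classes, the unnamed cluster led by Ppbp had 24.4%, above every class listed here.

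Within classes the clusters differed. Among fibroblast-like clusters, 33.8% of cells were Hsp70-high in the cluster led by Abca8a and 0.902% in the cytokine cluster. Among neutrophil-like clusters the share was 32.5% in the cluster led by Slc2a3 and Mmp8, where Hspa1a reached 4954 CPM (7195 in set 1, 3188 in set 2), and 10.0% in the cluster led by Asprv1 and Retnlg, at 2005 CPM (1889 and 2271). In the Matn1 chondrocyte-like cluster it was 0.312%, and 93.3% of those cells had 0.

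Hsp70-high cells were then set against cells with 0 in the same cluster, for the 11 clusters that had at least 50 of each, a comparison also chosen after values had been seen. Hspa1a and Hspa1b chose the cells and were left out of the totals and the counts. The other 8 heat shock genes were called higher in 80 of 87 pairs of gene and cluster and lower in 0. The 23 immediate early genes were called higher in 127 of 227 pairs and lower in 12, where 6.22% of pairs over all genes were called higher (2.87% to 15% by cluster) and 6.38% lower. Over all classes pooled, Hsp70-high cells were deeper, with a median of 13637 UMIs against 10098, and had a median mitochondrial share of 2.18% against 1.94%. Within the 11 clusters they were deeper except in the macrophage-like cluster (9242 against 11047) and the neutrophil-like cluster led by Slc2a3 (6345 against 6771.5). By class the mitochondrial share went both ways, at 3.02% against 2.72% in macrophage-like and 2.85% against 3.13% in muscle progenitor-like cells. With cells of 5000 to 20000 UMIs only, the counts were 83 of 87 and 130 of 209. Without the 5% of cells with the highest doublet scores they were 77 of 86 and 120 of 220.

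Individual genes showed how far the early genes went along. Jun was called higher in all 11 clusters, at 3.65 to 17.3 times the level in cells with 0, and reached 1710 against 98.7 CPM in the neutrophil-like cluster led by Asprv1. Fos was called higher in 10, at 1.49 to 35.7 times, and stood at 894 against 25.0 CPM in the fibroblast-like cluster led by Pi16 and at 1863 against 144 CPM in tenocyte-like or ligament fibroblast-like cells. The exception for Fos was the neutrophil-like cluster led by Slc2a3, at 387 against 259 CPM. Egr1 and Btg2 were each called higher in 10 clusters, and Junb, Atf3, Nr4a1 and Dusp1 in 9.

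A few early genes did not go along. Fosl1 was called higher in 0 of 10 clusters and lower in 6, as in osteoblast-like cells, where it was 6.70 CPM in Hsp70-high cells against 68.3 CPM in cells with 0. Egr3 was called higher in 0 and lower in 1 of 6 clusters, at 8.03 against 79.1 CPM in osteoblast-like cells. Ier3 was called higher in 2 and lower in 1 of 11, and was above 1 in only 3. In tenocyte-like or ligament fibroblast-like cells Ier3 was 251 against 1143 CPM, opposite to Fos in the same cells. Nr4a2 was called higher in 0 and lower in 1 of 8. Fosl1, Ier3 and Nr4a2 were also among the 4 genes called higher in the cytokine cluster of fibroblast-like cells. The match was partial. Nr4a3, the remaining gene of the 4, was called higher in Hsp70-high cells in 3 of 7 clusters and lower in 1, and was above 1 in 6. Egr3 was not called in the cytokine cluster, at 1.42 times the other fibroblast-like clusters.

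Of the other chaperones, Hsph1, Dnaja1, Dnajb1 and Hsp90aa1 were called higher in all 11 clusters. Hspb1 was called higher in 9 of 10, at 5.13 to 39.2 times, and went from 86.1 to 3379 CPM in osteoblast-like cells and from 42.7 to 1675 CPM in macrophage-like cells. In the neutrophil-like cluster led by Slc2a3 the Hspb1 ratio was 0.234 in set 1 and 29.2 in set 2, so it was not called. In the neutrophil-like cluster led by Asprv1, Hspb1 was at 12.2 CPM in Hsp70-high cells and 9.38 CPM in cells with 0, with under 100 UMIs in all, while Hspe1 went from 21.2 to 976 CPM.

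**Figure D4:**
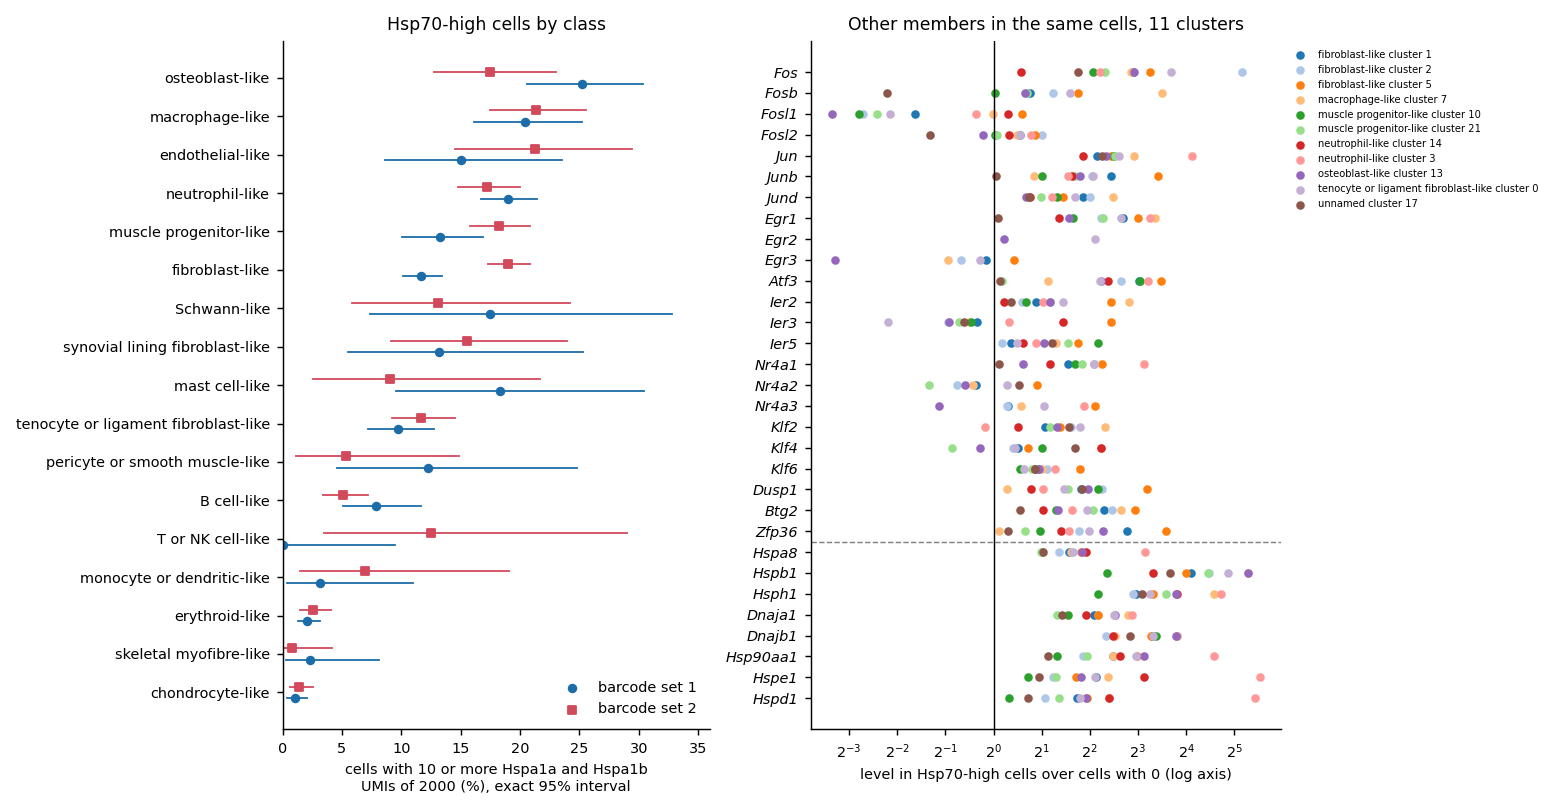
Left, the percentage of cells of each class with 10 or more Hspa1a and Hspa1b UMIs of 2000, per barcode set, with exact 95% binomial intervals; right, the CPM of the other members in those cells over cells with 0, on a log axis, with 1 point for each of 11 clusters. Most points lie right of 1, up to 46.1 for Hspe1, while Fosl1 and Ier3 lie mostly left of it.

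The barcode sets were compared within 20 units, which were classes, or clusters for chondrocyte-like, fibroblast-like and unnamed cells, with at least 50 cells in each set. What a set stands for is not known, so genotype, experiment, library and day cannot be told apart. Of 596 pairs, 56 were called higher in set 2 and 16 lower, where the rule called 1.84% and 1.89% of pairs over all genes, and 87.9% of member pairs were not called. Fos was called higher in set 2 in 9 of 20 units and above 1 in 17, with 373 against 125 CPM in the Prg4 chondrocyte-like cluster and 554 against 222 CPM in tenocyte-like or ligament fibroblast-like cells. It was called lower in set 2 in pericyte-like or smooth muscle-like cells, and was below 1 without a call in osteoblast-like (0.773) and macrophage-like cells (0.825). Klf2 was above 1 in 17 of 17 units and called in 8, as in the Prg4 chondrocyte-like cluster at 358 against 115 CPM.

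Atf3 was called higher in set 2 in 4 units, with 257 against 37.3 CPM in skeletal myofibre-like cells, and Zfp36 also in 4. Hspb1 was called higher in 5 units and lower in 1, B cell-like cells, at 79.4 against 320 CPM. In erythroid-like and neutrophil-like cells those set differences depended on the cells kept. Without the 5% of cells with the highest doublet scores, Hspb1 went from 2.33 to 0.858 in erythroid-like cells and from 3.29 to 0.541 in neutrophil-like cells, and in erythroid-like cells Atf3 went from 3.24 to 0.752 and Zfp36 from 2.70 to 0.734. With cells of at least 200 genes and 500 UMIs, Fos in erythroid-like cells went from 2.32 to 0.885. The largest neutrophil-like cluster also differed, the one led by Asprv1 in set 1 (548 of 1164 cells) and that led by Slc2a3 in set 2 (330 of 906). For Ier3 the call lower in set 2 in muscle progenitor-like cells (96.2 against 230 CPM) turned to ratios above 1 under 7 alternatives.

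The units did not move alike, and the shares in brackets are those of all genes called higher and then lower in set 2 in the same unit. Osteoblast-like cells had 0 calls (1.44% and 1.64%), with 5 of 33 members above 1 and a median log2 ratio of -0.32. Of all 8969 genes tested there, 3605 were above 1, with a median log2 ratio of -0.0668. The fibroblast-like cluster led by Abca8a had 31 of 33 above 1, of which Fos (998 against 466 CPM), Nr4a3, Klf2, Zfp36 and Dnajb1 were called higher (0.984% and 1.12%). Of all 9756 genes tested in that cluster, 4564 were above 1. The fibroblast-like cluster led by Pi16 had Fosb, Egr3, Nr4a1, Klf2 and Btg2 called higher (0.883% and 0.95%), and that led by Ccl11 had Klf2 and Dusp1 (0.39% and 1.06%). In the cytokine cluster Hspb1 alone was called, at 285 against 123 CPM (1.04% and 1.42%).

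Of the chondrocyte-like clusters, the one led by Msmp and Prg4 had Fos, Fosb and Klf2 called higher and Fosl1 and Hspd1 lower (1.66% and 3.18%). The one led by Matn1 had Fos, Klf2, Dusp1, Hspa1a, Hspa1b and Hspb1 higher and Hspd1 lower (3.32% and 4.57%). Tenocyte-like or ligament fibroblast-like cells had Fos, Egr2 and Btg2 called higher (1.65% and 2.11%), and synovial lining fibroblast-like cells Fos, Jund, Egr1, Atf3 and Klf2 (2.53% and 1.07%). Pericyte-like or smooth muscle-like cells went the other way, with 0 members called higher and Fos, Fosb, Ier3 and Klf4 called lower (2.49% and 3.33%). Endothelial-like cells had Egr1 and Atf3 called higher and Ier3 lower (1.28% and 1.45%). There 10 of 10 heat shock genes were above 1, beside 4418 of all 7676 genes tested.

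Among blood cells, B cell-like cells had Fos called higher and Junb, Hspb1 and Hsph1 lower (1.07% and 1.2%). There 0 of 10 heat shock genes were above 1, beside 4407 of all 7821 genes tested. Erythroid-like cells had Fos, Atf3, Klf2, Zfp36, Hspb1 and Hspd1 called higher and Jun lower (4.46% and 0.244%), and neutrophil-like cells Klf2, Klf4 and Hspb1 higher (2.91% and 1.34%). Macrophage-like cells had 1 call, Egr3 lower (1.52% and 2.76%), and mast cell-like cells had Nr4a3 and Hspa8 higher and Ier5 and Hspa1a lower (3.19% and 6.58%). Hsp70-high cells were 11 of 60 mast cell-like cells in set 1 and 4 of 44 in set 2, so this Hspa1a call can rest on few cells. Of the muscle units, progenitor-like cells had Dusp1 higher and Ier3 lower (1.45% and 1.38%), and skeletal myofibre-like cells Fos, Atf3, Ier3, Nr4a1, Btg2 and Zfp36 higher (7.32% and 1.07%). The unnamed cluster led by Ppbp, a platelet gene, had Klf4 and Dnajb1 higher (2.67% and 3.33%), and that led by Dnah12 had Fos, Zfp36 and Hspb1 higher (1.64% and 2.57%).

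Over the 14 classes with 50 cells in each set, 16 of the 33 members had their highest level in the same class in both sets. The same count was not made over all genes, so it has no background share. Schwann-like cells, with 40 cells in set 1, were left out, although they led for Egr2 and Nr4a2 when the sets were pooled. Among the 16 were Egr3 in chondrocyte-like, Atf3, Klf6 and Zfp36 in macrophage-like, Nr4a3 in mast cell-like and Hspb1 in endothelial-like cells. Hspa1a was highest in neutrophil-like cells in set 1 and in endothelial-like cells in set 2.

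**Figure D5:**
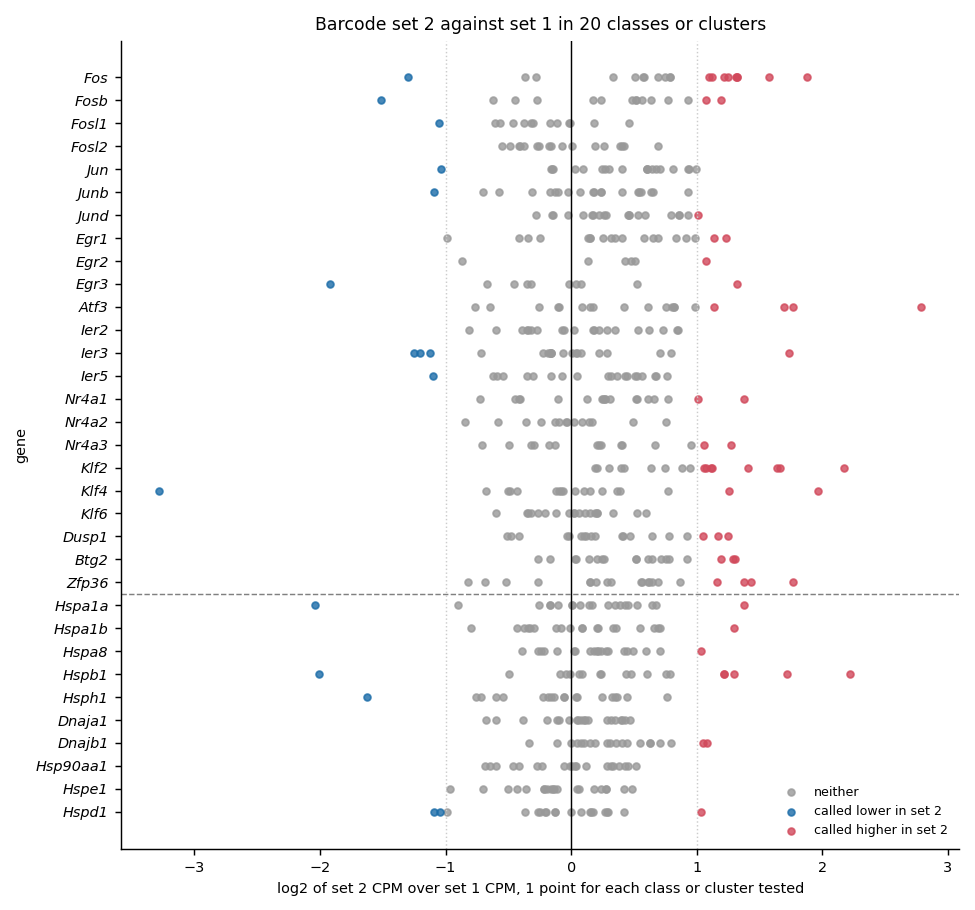
Log2 of set 2 CPM over set 1 CPM for each member, with 1 point for each class or cluster tested, coloured where called; dotted lines mark a 2-fold difference. All 17 Klf2 points lie right of 0 and 9 of the 20 Fos points are called higher in set 2.

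Genes related to the members were read from 5 lists. Of 42 other early response genes with enough UMIs, macrophage-like cells had 14 called higher and 14 lower, and monocyte-like or dendritic-like cells 13 and 16, where 9.52% and 45.3%, and 8.41% and 33%, of all genes were called higher and lower. In those classes Nfkbia, the inhibitor of NF-kB, reached its highest level at 1702 CPM (1690 and 1722) in monocyte-like or dendritic-like cells, as did Cebpb at 1988 CPM (2103 and 1790). The matricellular genes Ccn1 and Ccn2, targets of serum response and YAP signalling, had their highest levels in different classes, Ccn1 with 537 CPM (555 and 508) in osteoblast-like and Ccn2 with 1792 CPM (1924 and 1723) in synovial lining fibroblast-like cells. In monocyte-like or dendritic-like cells they were at 1.5 and 2.0 CPM. Erythroid-like cells had 38 of the 42 called lower, beside 70.7% of all genes.

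Of 40 other heat shock proteins and co-chaperones, skeletal myofibre-like cells, low in the inducible members, had 8 called higher and 7 lower, beside 7.73% and 52.5% of all genes. Those higher were Hspa1l, Hspb2, Hspb6, Hspb7, Hspb8, Cryab, Dnaja4 and Dnajb5, several of them muscle chaperones. Hspb7 was 159 CPM (170 and 151) there and 0.374 CPM in muscle progenitor-like cells, and Cryab peaked in Schwann-like cells at 1393 CPM (1718 and 1155). Neutrophil-like cells, high in Hspa1a, had 27 of the 40 called lower and 1 higher, beside 49.7% and 10.7% of all genes. Serpinh1, the collagen chaperone, peaked at 1545 CPM (1497 and 1623) in osteoblast-like cells. Hsp90ab1, the constitutive Hsp90, was called higher in no class and was highest in muscle progenitor-like cells at 3491 CPM.

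Of 23 genes of endoplasmic reticulum and integrated stress, chondrocyte-like cells had 5 called higher (Trib3, Herpud1, Chac1, Asns and Sesn2) and 0 lower, beside 8.23% and 31.5% of all genes. Chac1, a glutathione-degrading target of ATF4, was 55.9 CPM there, mostly from set 1 (82.7 against 22.3). Skeletal myofibre-like cells had 22 of the 23 called lower, beside 52.5% of all genes. Hspa5, the chaperone BiP, was highest in mast cell-like cells at 2852 CPM (2835 and 2882), Hsp90b1 in osteoblast-like cells at 755 CPM (823 and 647), and Ddit4 in monocyte-like or dendritic-like cells at 99.3 CPM (116 and 70.3). Of 15 oxidative and metal stress genes, 9 were called higher and 0 lower in macrophage-like cells, beside 9.52% and 45.3% of all genes. In monocyte-like or dendritic-like cells 9 were called higher and 2 lower, the metallothionein genes Mt1 and Mt2, beside 8.41% and 33%. Hmox1, which degrades haem, was 7447 CPM (6884 and 8006) in macrophage-like cells, where the ferritin gene Ftl1 also peaked, at 17403 CPM. Fth1 peaked in monocyte-like or dendritic-like cells at 52108 CPM, as did the cystine transporter gene Slc7a11 at 2079 CPM (2268 and 1756).

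Of 15 upstream kinases and factors of serum response and AP-1, osteoblast-like cells had 0 called in either direction, beside 7.25% and 19.9% of all genes, and B cell-like cells 7 higher and 1 lower, beside 21.8% and 29.9%. Elk3, a ternary complex factor of serum response factor, was highest in endothelial-like cells at 308 CPM (306 and 309). Crem, a cyclic AMP-responsive factor, was highest in mast cell-like cells at 616 CPM (619 and 611), the class that also led for Nr4a3. Map2k2, which encodes the kinase MEK2, ranged from 51.8 CPM in erythroid-like to 266 CPM in muscle progenitor-like cells.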

How the data were processed

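Knee joint cells were measured by 10x Genomics 3' single-cell RNA-seq. The deposited matrix holds raw UMI counts per gene and barcode, made and merged by the authors with Cell Ranger 7.0.0, per the labels' protocols, on build mm10, per the submitters' processing notes. The labels do not state if reads in introns count. From the counts, cells were filtered as the report gives, scaled to 10000 per cell and clustered (scanpy 1.11.5, leidenalg 0.10.2, 2000 variable genes, 30 components, 15 neighbours, resolution 1). The members, the related lists, collagens, mitochondrial, ribosomal protein and sex-linked genes (333 genes) played no part in clustering. A cluster took the class with the highest mean marker log2 fold, if the median was at least 1 and at least 3 markers, each in 10% of cells, reached a log2 fold of 1, after adding 10 CPM to both sides. A cluster stayed unnamed where at least 3 of its 10 leading genes, and more than of its own, were markers of another class. Levels have exact Poisson intervals, ratios exact conditional binomial intervals and shares exact Clopper-Pearson intervals, computed with scipy 1.17.1. The call rule between classes and the intervals were checked on simulated counts. These were Poisson sums without variation between cells, so the check does not give the rate of calls in these cells.

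Samples were grouped by labelled genotype, 1 each, with no map from cells to them, so no test was run. In comparisons between sets, the call rule had no condition on sets. The members and lists were chosen with earlier results of these data known. All 33 members are named, and from each related list the 2 genes with the most UMIs and the 2 with the widest range over classes, apart from 1 gene that is not reported here. Alternatives changed the filters, the clustering, the scaling, the reference, the UMI minimum and the sets used. Coordinates are from GENCODE M21.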

Additional observations from a re-analysis of the deposited data

Results flagged for a closer look

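The report leaves out 9032 barcodes, and the members had signal in them above the 3 counts that a count of 0 allows. In the 3906 barcodes with over 10% mitochondrial UMIs, the summed immediate early level was 1341 CPM and the summed heat shock level 1956 CPM, against a limit of 0.238 CPM and against 5393 and 8715 CPM in kept cells. In the 5123 other barcodes with under 500 genes or 1000 UMIs, of whose UMIs 90.1% were haemoglobin, the sums were 160 and 220 CPM, against a limit of 0.103 CPM. Fos was 123 CPM and Hspa1a 369 CPM in the first group, and 5.95 and 37.0 CPM in the second. With 1 sample, no member could be examined for a sample far from the others.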

How the results depend on the processing

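Over the alternatives that kept both barcode sets, 34 to 52 pairs of a member and a class were called higher (39 as reported), apart from 83 when each class was set against the median of the other classes, and 135 to 212 lower (187). Between sets, 40 to 66 pairs were called higher in set 2 (56), and 14 to 21 members had the same highest class in both sets (16). Pairs called lower in set 2 (16) numbered 7 with at least 1000 genes and 2000 UMIs, 9 with at most 5% mitochondrial UMIs and 10 without the 5% of cells with the highest doublet scores, the last chosen after seeing the data. With 1 barcode set left out, 29 to 43 pairs were called higher and 186 to 197 lower. Of 3804 alternative values of the 226 class calls, 230 missed the rule and 48 changed direction, and of 550 values of 42 set calls, 110 and 13. Set calls in chondrocyte-like, fibroblast-like and unnamed clusters were not followed one by one. No paired analysis was possible because the barcodes carry no replicate numbers and no test was run.

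Ratios that changed direction follow by setting, and the cause was not tested. In monocyte-like or dendritic-like cells, with 15 components Jun was 1.14, Nr4a1 1.2, Hspa1a 1.17, Hspa1b 1.37, Hsph1 1.23, Dnajb1 1.79, Hsp90aa1 1.55 and Hspe1 1.41. At resolution 0.5 Jun was 1.18, Nr4a1 1.53, Btg2 1.08, Hspa1a 1.2, Hspa1b 1.48, Hsph1 1.22, Dnajb1 1.68, Hsp90aa1 1.46 and Hspe1 1.26, and at resolution 2 Jun was 1.05, Nr4a1 1.14, Btg2 1.09 and Hspa1b 1.18. With at least 200 genes and 500 UMIs Jun was 1.09, Nr4a1 1.15, Btg2 1.14 and Hspa1b 1.23, with components centred per set 1.04, 1.06, 1.08 and 1.13, and by the mean over cells Nr4a1 was 1.02. In synovial lining fibroblast-like cells, with 15 components Fosl1 was 1.34, Ier3 1.44 and Nr4a2 1.16. Fosl2 in neutrophil-like cells was 0.971 at resolution 2 and 0.988 with another seed, Fosl1 in fibroblast-like cells 0.931 with called doublets kept, and Hspd1 in mast cell-like cells 1.03 by the mean over cells. Against the median of the classes, Egr1 and Klf4 in Schwann-like cells were 1.03 and 1.33, Egr1 and Egr3 in endothelial-like cells 1.04 and 1.65, Egr3 1.88 in fibroblast-like and 1.65 in macrophage-like cells, Fosl1 and Ier3 in neutrophil-like cells 1.04 and 1.02, Fosl1 in osteoblast-like cells 1.23, and Fosl1 and Ier3 in synovial lining fibroblast-like cells 1.23 and 1.03. Of ratios between sets, Ier3 in muscle progenitor-like cells was 1.32 with 15 components, 1.28 at resolution 2, 1.26 with at least 1000 genes and 2000 UMIs, 1.23 with at least 200 genes and 500 UMIs, 1.37 with at most 5% mitochondrial UMIs, 1.26 with members in the clustering and 1.35 with centred components. Fos in erythroid-like cells was 0.885 with at least 200 genes and 500 UMIs, and Nr4a1 in skeletal myofibre-like cells 0.978 by the mean over cells. Without the highest doublet scores Atf3, Zfp36 and Hspb1 in erythroid-like cells were 0.752, 0.734 and 0.858, and Hspb1 in neutrophil-like cells 0.541. Depth limits low members: with under 100 UMIs over both sides together no pair was called. Between classes all 33 members passed this minimum, so lower calls there can rest on few UMIs in the class. Egr2, called lower in synovial lining fibroblast-like cells, had 1 UMI there.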
